A study of Mus musculus with 23 samples.

Results

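At 9 months of age, the loss of 1 functional copy of Lsd1 was examined in the hippocampus of tau transgenic mice. PS19 mice heterozygous for Lsd1 (labelled PS19;Lsd1Δ/+, 4 libraries, PS19 transgene and LSD1 +/-) were compared with PS19 mice (4 libraries, PS19 transgene and LSD1 +/+). These 8 of the 23 libraries of the series were chosen by their titles, with no measured value used. Lsd1 heterozygotes without the transgene (Lsd1Δ/+, 2 libraries) and wild-type mice (WT, 4 libraries) of the same age were read beside them. All 4 groups are C57BL/6 mice, and their labels name no virus. Both compared groups carry the transgene.

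The Kdm1a gene encodes LSD1, a demethylase that removes methyl groups from lysine 4 of histone H3 and acts in repressor complexes with CoREST proteins and histone deacetylases. PS19 mice express human tau with the P301S mutation from the Prnp promoter and develop tau aggregates, gliosis and loss of hippocampal neurons with age. The series title names inhibition of LSD1 by sequestration as a contributor to neurodegeneration in tau mice, and this comparison asks what a lower dose of the gene does to the transcriptome once tau is present. Poly(A)-selected RNA of dissected hippocampus was sequenced, and reads were counted per gene. Nothing in the labels ties each library to a mouse of its own, so every p-value rests on spread that could be technical. In bulk tissue, fewer cells of a type and less RNA per cell cannot be told apart.

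Counted reads ran from 15451494 to 24617197 per library in PS19 Lsd1 heterozygotes and from 16214938 to 21797808 in PS19. Mitochondrial genes took 16.1% of the counts in PS19 replicate 3, against 2.86% to 5.77% in the other 7 libraries compared. WT replicate 3, outside the comparison but in the fit of all 14 libraries, held 33.9% mitochondrial counts and had a TMM factor (which scales library size) of 0.653, against 0.908 to 1.12 in the other 13. Fitted without it, on the 8 compared libraries alone, edgeR likewise called 0 genes, with 245 at an unadjusted p under 0.05. The first principal component over the 8 libraries (49.9% of the variance) separated replicates 1 and 2 from replicates 3 and 4 in both groups. The replicate number entered the fit as a block, as planned beforehand. That split does not pair libraries by number, and no heterozygote library correlated best with the PS19 library of its own number. The second component (17.4%) set PS19 Lsd1 heterozygote replicate 2 apart.

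That library was high in markers of other brain regions. A list of 15 cerebellar genes, chosen after these values were seen, summed to 3836 CPM (read counts relative to the TMM-scaled total of the library) in it, against 46.5 to 76.8 CPM in the other 3 PS19 Lsd1 heterozygote libraries and 53.6 to 100.6 CPM in PS19. In WT the list summed to 246 CPM in replicate 2 and to 58.3 to 99.5 CPM in the other libraries. Gabra6, a GABA-A receptor subunit of cerebellar granule cells, read 0.0463, 216, 0 and 0 CPM in replicates 1 to 4 of PS19 Lsd1 heterozygotes, against 0, 0.157, 0 and 0.0435 CPM in PS19. Cbln3, Fat2 and Cbln1, also of granule cells, stood at 788, 524 and 505 CPM in replicate 2 and at no more than 11.8 CPM in the other 7 libraries. Slc6a5, the glycine transporter of brainstem and spinal inhibitory neurons, read 158 CPM in replicate 2 and 2.6 CPM in replicate 3, against 0.0436 to 0.157 CPM in PS19. The 15 genes that mark the hippocampus averaged 4.59 log2 CPM in replicate 2, against 5.72 to 6.48 in the other PS19 Lsd1 heterozygotes and 6.10 to 6.48 in PS19. Replicate 2 is lower in hippocampal markers and far higher in cerebellar ones, and list medians that turned or moved by over 1.5 times without it are given both ways.

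Replicate 3 differed in another way. The 15 striatal markers averaged 3.69 log2 CPM in it, against 2.01 to 2.23 in the other PS19 Lsd1 heterozygotes and 1.77 to 2.31 in PS19. A similar level was found in WT replicates 3 and 4 (3.65 and 3.91), with WT replicates 1 and 2 at 2.14 and 2.39. Drd1, the D1 dopamine receptor, read 3.75, 0.907, 20.5 and 4.85 CPM in PS19 Lsd1 heterozygotes, against 2.92, 2.09, 4.42 and 6 CPM in PS19. Drd2, the D2 receptor, read 2.68, 8.38, 11 and 3.57 CPM in PS19 Lsd1 heterozygotes, against 4.05, 3.7, 3.4 and 2.91 CPM in PS19. The part that tissue from outside the hippocampus plays in the differences below was not tested beyond leaving these libraries out.

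**Figure D1:**
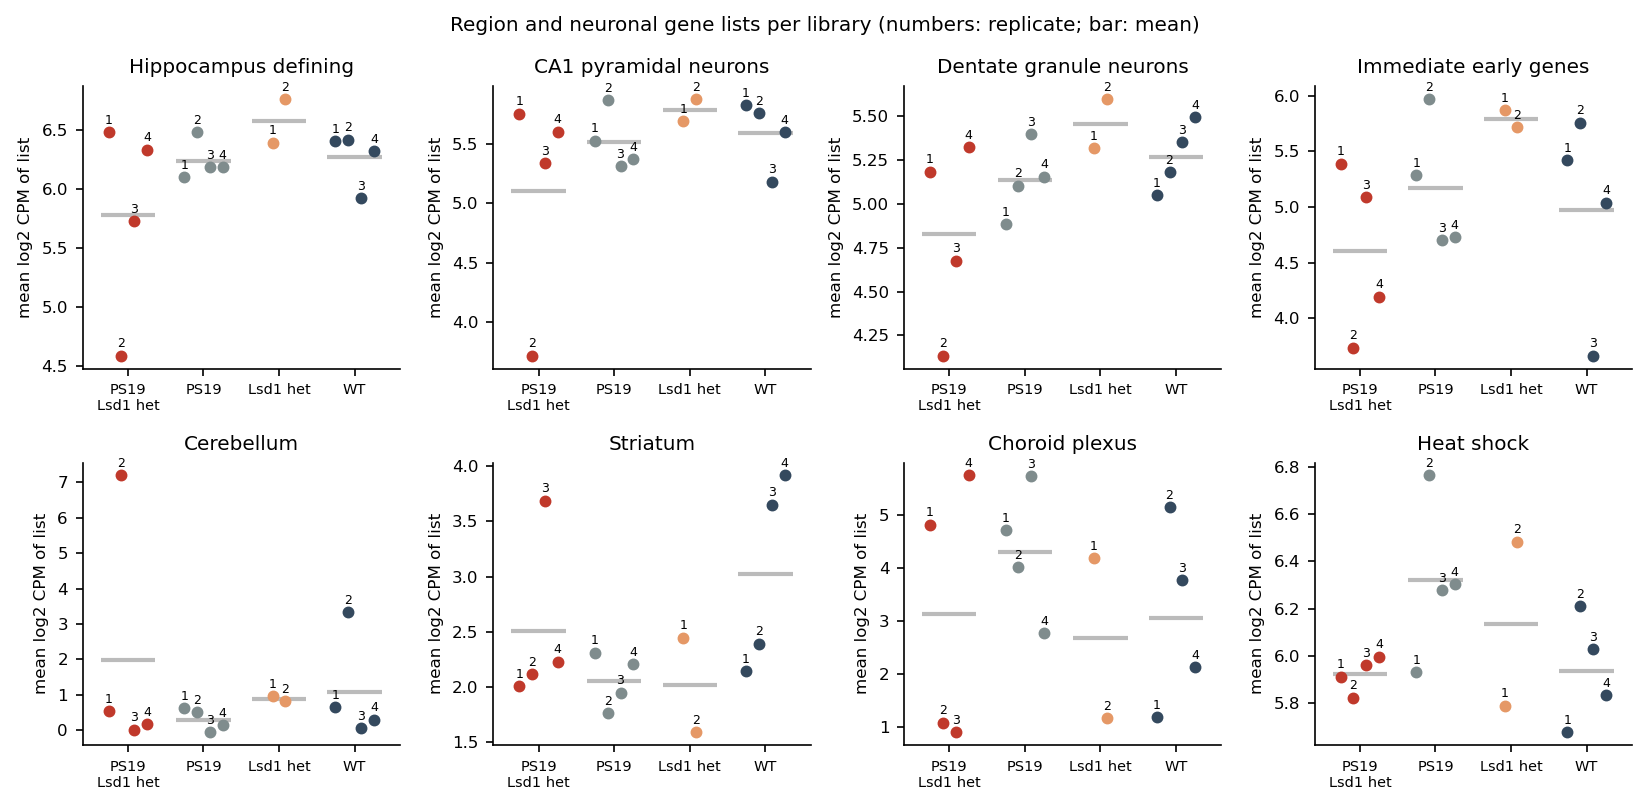
Mean log2 CPM of 8 gene lists in each library (y axis), for PS19 Lsd1 heterozygotes, PS19, Lsd1 heterozygotes without tau and WT (x axis). Points are libraries numbered by replicate and grey bars are group means. Replicate 2 of the PS19 Lsd1 heterozygotes stands apart for hippocampal (4.59) and cerebellar genes (7.20). Replicate 3 is above the rest of both PS19 groups for striatal genes (3.69), but WT replicates 3 and 4 are similar (3.65 and 3.91).

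Kdm1a itself (chromosome 4, 136550540 to 136602723, GRCm38) was read first, since it checks the genotype. It stood at 34.9, 34.6, 55.9 and 44.5 CPM in replicates 1 to 4 of PS19 Lsd1 heterozygotes, against 47.8, 50.1, 53.2 and 60.8 CPM in PS19. Replicates 1, 2 and 4 of the heterozygotes lay below every PS19 library, while the library labelled replicate 3 lay within the PS19 range. Lsd1 heterozygotes without tau read 34.8 and 35.8 CPM, against 50.5 to 61 CPM in WT. Means were 42.5 ± 10.03 CPM in PS19 Lsd1 heterozygotes and 53 ± 5.68 CPM in PS19 (SD, n = 4 each). The log2 difference was -0.34 (SE 0.12), with an unadjusted p of 0.016 by edgeR's quasi-likelihood test. Adjusted over all genes tested, it did not pass (adjusted p = 0.933). An exact two-sided permutation of the 8 log2 CPM values, which does not keep libraries within their replicate number, gave p = 0.143, where 0.0286 is the smallest that 4 against 4 allows. Without replicate 2 the log2 difference was -0.29, and without replicate 3 it was -0.46 (SE 0.08). Every direction below includes the library labelled replicate 3, whose Kdm1a is at the PS19 level.

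Mapt and Prnp, read as checks of the tau transgene, did not separate the compared groups. Mapt, the mouse tau gene, averaged 593 ± 78.8 CPM in PS19 Lsd1 heterozygotes and 587 ± 128 CPM in PS19 (SD, n = 4 each). Reads of the human transgene that align to Mapt cannot be told from reads of the mouse gene. Prnp, the prion protein gene whose promoter drives the transgene, averaged 1563 ± 353 CPM in PS19 Lsd1 heterozygotes and 1623 ± 133 CPM in PS19, against 766 ± 129 CPM in WT (SD, n = 4 each).

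Across all genes, edgeR called none of 20122 (0%) at an adjusted p under 0.05, the lowest adjusted p being 0.933. At an unadjusted p under 0.05 there were 323 genes higher (1.61%) and 286 lower (1.42%) in PS19 Lsd1 heterozygotes. The 4 libraries of one group lay above all 4 of the other for 77 genes higher (0.383%) and 49 lower (0.244%). Without replicate 2 of the heterozygotes these counts were 166 (0.825%) and 116 (0.576%). The median log2 difference of all genes was 0.01. DESeq2 with the same replicate block called 3 genes higher (Capn11, Gm10036 and Nudc-ps1, 0.0149%) and 0 lower (0%). Without the block DESeq2 called Capn11 alone.

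Capn11 encodes a calpain, a calcium-dependent protease, known from testis. It read 3.66, 2.18, 3.39 and 5.33 CPM in PS19 Lsd1 heterozygotes, against 0.305, 0.47, 0.068 and 0.608 CPM in PS19. Every heterozygote library was above every PS19 library, replicates 2 and 3 included. The log2 difference was 3.22 (SE 0.65). Its adjusted p was 0.933 in edgeR and 0.00672 in DESeq2. Without tau the values ran the other way, at 0.296 and 0.38 CPM in Lsd1 heterozygotes and at 4.31, 0.706, 2.34 and 0.768 CPM in WT. Low and high libraries of Capn11 occurred both with and without Lsd1 loss. The Lsd1 difference with tau minus that without tau was 5.64 (SE 1.12) for Capn11. EdgeR's test of whether the Lsd1 difference itself depends on tau gave an unadjusted p of 0.000417 and an adjusted p of 1.

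The other pair called by DESeq2 are processed pseudogenes, transcripts copied back into the genome from a spliced parent mRNA. Reads of a parent and a near-identical copy are hard to tell apart, so the parents were looked up by aligning the GENCODE M21 transcripts of GRCm38. Of 1127 tested pseudogenes with a parent (at least 90% identity over at least 200 bases), 11 had an unadjusted p under 0.01. The parent lay within 20 Mb of Kdm1a on chromosome 4 for 5 of those 11 (45.5%), against 34 of all 1127 (3.02%). The window and the p limit were set after the values were seen, so these shares are a description with no test. Gm4864, 1 of the 5, passed the filter on low counts only through the heterozygotes. Over the 1010 pseudogenes that reached 0.483 CPM in at least 2 of the 8 PS19 and WT libraries, a limit also chosen after the values were seen, the parent lay in that window for 4 of 8 with a p under 0.01, against 27 of all 1010 (2.67%). The 5 of 11 were Gm10036 (parent Rpl11, a ribosomal protein gene, 0.52 Mb from Kdm1a), Gm11223 (Stmn1, stathmin, 2.08 Mb), Nudc-ps1 (Nudc, a dynein-associated chaperone, 3.02 Mb), Gm4864 (Hdac1, a histone deacetylase, 7.03 Mb) and BC002163 (Ndufs5, a subunit of respiratory complex I, 12.84 Mb). The other 29 pseudogenes with a parent in that window were 14 higher and 15 lower, with a median log2 difference of -0.07.

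For a pair of these, parent and copy differ at only a few bases. Nudc-ps1 (chr8:29286892-29286981, minus strand) and the matching stretch of the Nudc coding sequence (chromosome 4, 133532542 to 133545996, minus strand) are shown as 90 bases of the GENCODE M21 transcripts on GRCm38, 5′ to 3′, with the differing base in capitals. Counted from 1 at the first base shown, Nudc-ps1 differs from Nudc by G36A.
Nudc-ps1: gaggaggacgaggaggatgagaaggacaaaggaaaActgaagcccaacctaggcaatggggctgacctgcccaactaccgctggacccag
Nudc: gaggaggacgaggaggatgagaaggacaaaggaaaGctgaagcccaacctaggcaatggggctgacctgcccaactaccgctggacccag
BC002163 (chr16:42955678-42955767, plus strand) differs from the Ndufs5 coding sequence (chromosome 4, 123712710 to 123718202, minus strand) by T34C and A58G in the stretch shown.
BC002163: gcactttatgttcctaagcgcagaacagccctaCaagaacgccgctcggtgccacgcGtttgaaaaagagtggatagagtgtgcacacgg
Ndufs5: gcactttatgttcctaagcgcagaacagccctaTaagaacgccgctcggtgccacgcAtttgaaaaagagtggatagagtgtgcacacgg
Over the whole alignment, identity to the parent was 99.1% for Nudc-ps1 over 555 bases and 99.4% for BC002163 over 319 bases. It was 99.25% for Gm10036 and 99.78% for Gm11223. Gm4864 was less alike, at 94.55% over 1469 bases, so its reads are easier to tell from those of Hdac1.

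BC002163 read 9.53, 12.6, 0.303 and 15.3 CPM in PS19 Lsd1 heterozygotes, against 1.13, 0.939, 0.612 and 0.174 CPM in PS19. Gm10036 read 7.59, 7.18, 0.484 and 6.66 CPM in PS19 Lsd1 heterozygotes, against 1.39, 1.2, 0.34 and 0.261 CPM in PS19. Both were high in 3 heterozygote libraries and at the PS19 level in the library labelled replicate 3, the one whose Kdm1a also lay at the PS19 level. Gm4864 read 0.509, 0.725, 0.605 and 0.545 CPM in PS19 Lsd1 heterozygotes, against 0.0436, 0.157, 0.136 and 0 CPM in PS19. Nudc-ps1 read 14.3, 16.2, 11.8 and 11.3 CPM in PS19 Lsd1 heterozygotes, against 9.5, 11.3, 8.22 and 5.69 CPM in PS19. For these the library labelled replicate 3 kept to its own group, so the 5 transcripts do not sort that library alike. Gm11223 read 3.66, 4.61, 0.908 and 1.51 CPM in PS19 Lsd1 heterozygotes, against 2.09, 2.56, 0.204 and 0.695 CPM in PS19, and was higher than PS19 within each replicate number. It was chosen by a low p in the fit with the replicate block, so that agreement is no separate support.

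The log2 differences were 3.78 (SE 1.03) for BC002163, 2.74 (SE 0.57) for Gm10036, 2.90 (SE 0.54) for Gm4864, 1.09 (SE 0.30) for Gm11223 and 0.65 (SE 0.14) for Nudc-ps1. By DESeq2 the adjusted p was 0.0147 for Gm10036, 0.0191 for Nudc-ps1, 0.323 for Gm4864 and BC002163 and 0.974 for Gm11223. The parents had negative log2 differences, with overlapping groups: -0.16 for Nudc, -0.16 for Rpl11, -0.44 for Ndufs5, -0.30 for Hdac1 and -0.06 for Stmn1. With 1 replicate left out, Nudc ran from -0.29 to 0.012 and Stmn1 from -0.34 to 0.11, so neither kept its sign. Ndufs5 stood apart in PS19 replicate 3, at 96.1 CPM.

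Mice without tau gave a separate reading of the same transcripts, in libraries outside the compared groups, although the transcripts were chosen with these values known and 1 fit over all 14 libraries shares their spread. Gm10036 stood at 8.25 and 9.98 CPM in Lsd1 heterozygotes, against 0.323 to 1.2 CPM in WT. BC002163 stood at 11.1 and 10.7 CPM in Lsd1 heterozygotes, against 0.121 to 2.34 CPM in WT. Gm4864 stood at 0.423 and 0.597 CPM in Lsd1 heterozygotes, against 0.0404 to 0.166 CPM in WT, and Nudc-ps1 at 14.9 and 16.9 CPM in Lsd1 heterozygotes, against 6.79 to 12.2 CPM in WT. Gm11223 stood at 7.7 and 3.85 CPM in Lsd1 heterozygotes, against 0.389 to 2.78 CPM in WT. For all 5, both heterozygote libraries were above all 4 WT libraries. The share of all genes that separate in this way was not counted, so this describes the chosen transcripts only. The log2 differences were 3.23 (SE 0.68), 3.05 (SE 1.18), 1.95 (SE 0.61), 0.54 (SE 0.17) and 1.26 (SE 0.36) for Gm10036, BC002163, Gm4864, Nudc-ps1 and Gm11223, named in the order of the values. None passed edgeR's test across all genes, which called 0 of 20122 (0%) between Lsd1 heterozygotes and WT and held 181 genes at an unadjusted p under 0.05.

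**Figure D2:**
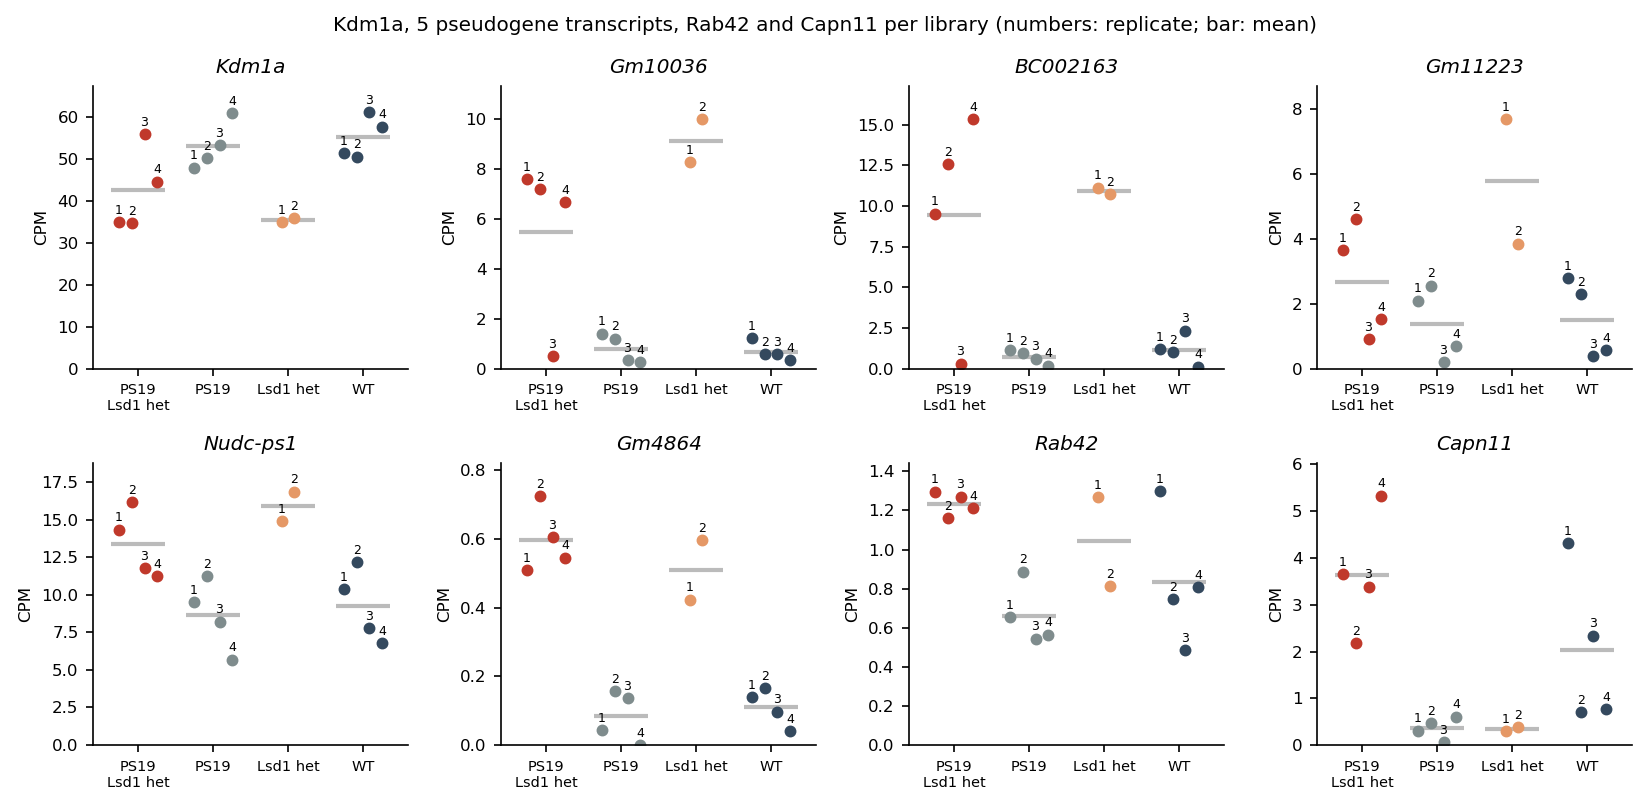
CPM of Kdm1a, 5 pseudogene transcripts, Rab42 and Capn11 in each library (y axes start at 0), for PS19 Lsd1 heterozygotes, PS19, Lsd1 heterozygotes without tau and WT. Points are libraries numbered by replicate and grey bars are group means. Gm10036 and BC002163 are at 6.66 CPM or more in every Lsd1 heterozygote library except the one labelled replicate 3 of the PS19 group.

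**Figure D3:**
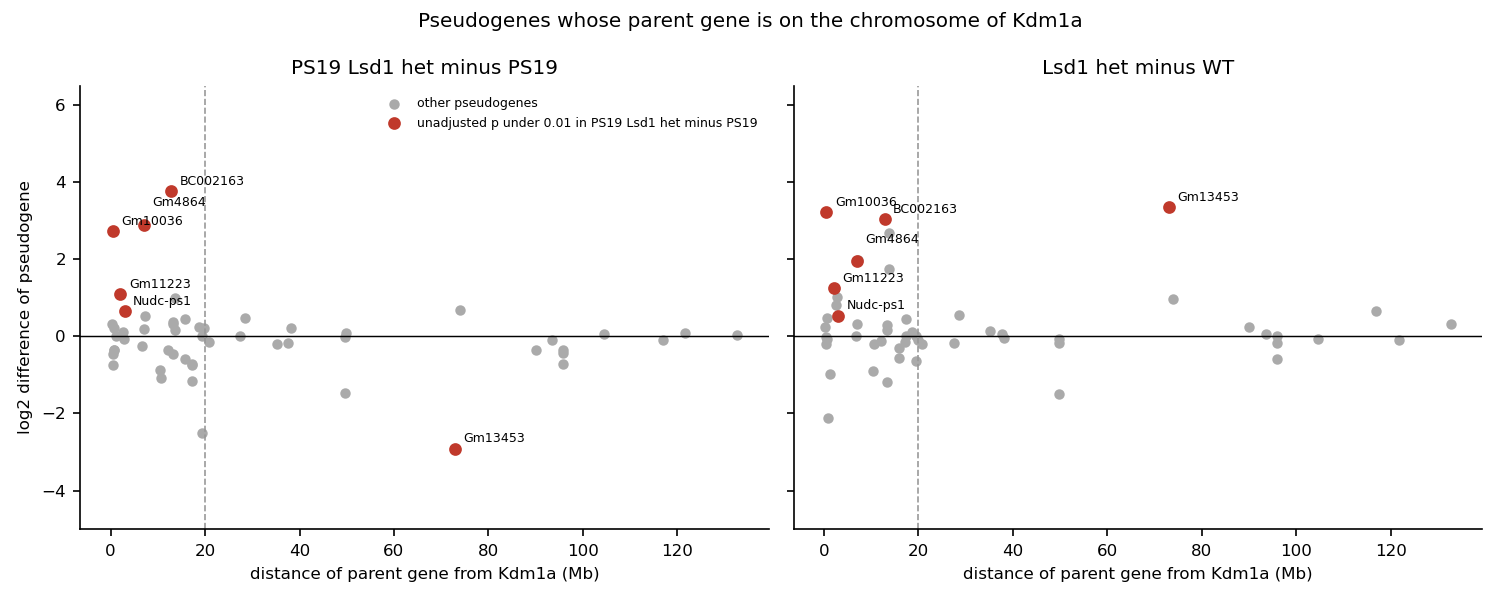
Log2 difference of 54 pseudogenes whose parent is on the chromosome of Kdm1a (y axis) against the parent's distance from Kdm1a in Mb (x axis), for PS19 Lsd1 heterozygotes minus PS19 (left) and Lsd1 heterozygotes minus WT (right). Red points had an unadjusted p under 0.01 in the comparison on the left and the dashed line marks 20 Mb. The 5 red points within 20 Mb are above 0 in both panels, and Gm13453, with its parent 73.01 Mb away, is below 0 on the left and above 0 on the right.

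Genes around Kdm1a were followed in the same way. Of 343 genes within 5 Mb, 184 were tested, and 117 had a positive and 67 a negative log2 difference (median 0.10, and -0.02 without replicate 3 of the heterozygotes). At an unadjusted p under 0.05 there were 4 higher and 1 lower of the 184, beside 1.61% and 1.42% of all genes. Rab42, a small GTPase gene, read 1.3, 1.16, 1.27 and 1.21 CPM in PS19 Lsd1 heterozygotes, against 0.653, 0.887, 0.544 and 0.565 CPM in PS19. Its groups did not overlap, and the log2 difference was 0.90 (SE 0.30). Without tau, Rab42 stood at 1.27 and 0.814 CPM in Lsd1 heterozygotes and at 0.487 to 1.3 CPM in WT, which overlap. Hmgn2, a nucleosome-binding protein gene, had a log2 difference of -0.33 (SE 0.12), with overlapping groups.

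LSD1 and its partners were next. Of 16 tested members of the LSD1-CoREST list, 6 had a positive and 10 a negative log2 difference (median -0.10, against 0.01 over all genes), and none was called. Kdm1a itself is in the list and among the 10, and its copy number is set by the genotype. Hdac1, a histone deacetylase of the complex, read 23, 20.8, 20.7 and 26.6 CPM in PS19 Lsd1 heterozygotes, against 26, 26, 30.2 and 30.3 CPM in PS19. The groups overlapped only through replicate 4 of the heterozygotes, and the log2 difference was -0.30 (SE 0.11). The scaffold Rcor1 was at 0.03, and Rest, the repressor that recruits CoREST to neuronal genes, at -0.28. Without replicate 2 the list's median was 0.03, with 9 of 16 positive. The 24 other enzymes of H3K4 and H3K9 methylation divided evenly (12 positive, 12 negative, median 0.003, and -0.008 without replicate 2). Suv39h2, an H3K9 methyltransferase, was at -0.38 (SE 0.19) and Kdm4a, an H3K9 and H3K36 demethylase, at 0.20 (SE 0.11).

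Stem cell factors have been reported to rise when LSD1 is lost in adult neurons. Of 14 in the list, 8 passed the filter on low counts, 1 with a positive and 7 with a negative log2 difference (median -0.12), and none was called. Klf4, Myc and Foxo1 were at -0.28, -0.14 and -0.22. Sox2 averaged 46.7 ± 17.1 CPM in PS19 Lsd1 heterozygotes and 51.3 ± 10.1 CPM in PS19 (SD, n = 4 each). Esrrb, the 1 positive gene, read 1.99, 13.1, 1.57 and 2.12 CPM in PS19 Lsd1 heterozygotes, against 2.05, 2.09, 1.63 and 1.56 CPM in PS19, so its mean rests on replicate 2. Neuronal genes bound by REST and CoREST had mostly negative differences (7 positive, 15 negative, median -0.07, and -0.19 without replicate 2). Gria2, an AMPA receptor subunit, was at -0.38 (SE 0.20) and Syn1, synapsin I, at -0.37 (SE 0.21).

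Interferon-stimulated genes had mostly negative differences, which rested on 1 PS19 library. Of 32, 30 had a negative log2 difference (median -0.37), and none was called. Per library the list averaged 3.05, 2.16, 2.67 and 2.60 log2 CPM in PS19 Lsd1 heterozygotes, against 4.08, 1.54, 2.50 and 3.26 in PS19. The heterozygote values all fell within the spread of PS19, which ran from below to far above them. Cxcl10, a chemokine that attracts T cells, read 7.54, 1.92, 4.05 and 4.54 CPM in PS19 Lsd1 heterozygotes, against 13.4, 2.4, 4.35 and 9 CPM in PS19. Ifit2 was at -0.39 (SE 0.21) and Irf9, a subunit of the interferon-activated transcription factor, at -0.38 (SE 0.22). Without replicate 2 of the heterozygotes the median was -0.44, with 3 of 32 positive, but without PS19 replicate 1, the highest library, it was 0.07, with 20 of 32 positive.

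Microglial genes showed no common direction. Disease-associated microglia genes, induced in microglia near pathology, had 16 of 30 positive (median 0.04), complement and Fc receptor genes 12 of 19 (0.08) and homeostatic microglia genes 4 of 16 (-0.04). Without replicate 2 of the heterozygotes all 3 medians turned, with 14 of 30 positive for disease-associated (-0.04), 8 of 19 for complement and Fc receptor (-0.009) and 10 of 16 for homeostatic genes (0.05). Disease-associated genes averaged 4.56, 4.43, 4.74 and 4.85 log2 CPM in PS19 Lsd1 heterozygotes, against 5.08, 3.41, 4.00 and 5.62 in PS19 and 2.56 to 2.97 in WT. Again each heterozygote library lay inside the PS19 range, which was wider (SD 0.19 in PS19 Lsd1 heterozygotes and 1.00 in PS19). Itgax, an integrin of activated microglia, read 13.7, 13.7, 13.8 and 32.4 CPM in PS19 Lsd1 heterozygotes, against 15.9, 2.82, 3.33 and 56.1 CPM in PS19. C4b, a complement component, read 364, 182, 327 and 375 CPM in PS19 Lsd1 heterozygotes, against 577, 72.8, 93.6 and 472 CPM in PS19. P2ry12, a purinergic receptor of resting microglia, was at -0.51 (SE 0.21) and Mertk, a phagocytic receptor, at -0.37 (SE 0.22). Itgam, a complement receptor chain, was at -0.45 (SE 0.30), C1ra at 0.36 (SE 0.37), Lpl, lipoprotein lipase, at -0.51 (SE 0.32) and Igf1 at -0.29 (SE 0.23).

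Lymphocyte and antigen presentation genes were mixed. Antigen presentation genes had 5 of 20 positive (median -0.11, -0.16 without replicate 2 of the heterozygotes and 0.23 without PS19 replicate 1). Cd74, a chaperone of MHC class II, read 57, 38.4, 21 and 97.1 CPM in PS19 Lsd1 heterozygotes, against 53.9, 8.66, 14.1 and 227 CPM in PS19. B2m, the light chain of MHC class I, was at -0.43 (SE 0.42) and H2-DMb1 at -0.40 (SE 0.41). Of 19 T cell genes, 8 passed the filter, and 7 of these were positive (median 0.54, ranging from 0.09 to 0.75 with 1 library left out). Per library the list averaged -0.13, -1.12, 0.05 and 0.15 log2 CPM in PS19 Lsd1 heterozygotes, against -0.11, -1.24, -1.21 and -0.07 in PS19. These levels are low, and the groups overlap. Trac, the T cell receptor alpha constant gene, read 0.694, 0.943, 0.787 and 0.666 CPM in PS19 Lsd1 heterozygotes, against 0.349, 0.47, 0.612 and 0.348 CPM in PS19. Its groups did not overlap, and the log2 difference was 0.83 (SE 0.33; adjusted p = 0.933 by edgeR). All of these Trac values lie under 1 CPM, so they rest on few reads. Cxcr6, a chemokine receptor of tissue T cells, overlapped (0.98, SE 0.67). B cell genes had 2 of 6 tested of 15 positive (median -0.28, and -0.43 without replicate 2 of the heterozygotes), with Ighm, the IgM heavy chain, at 0.40 (SE 0.40), and Ighg2c stood at 2.24 CPM in replicate 3 of the heterozygotes and at no more than 0.261 CPM in the other 7 libraries.

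**Figure D4:**
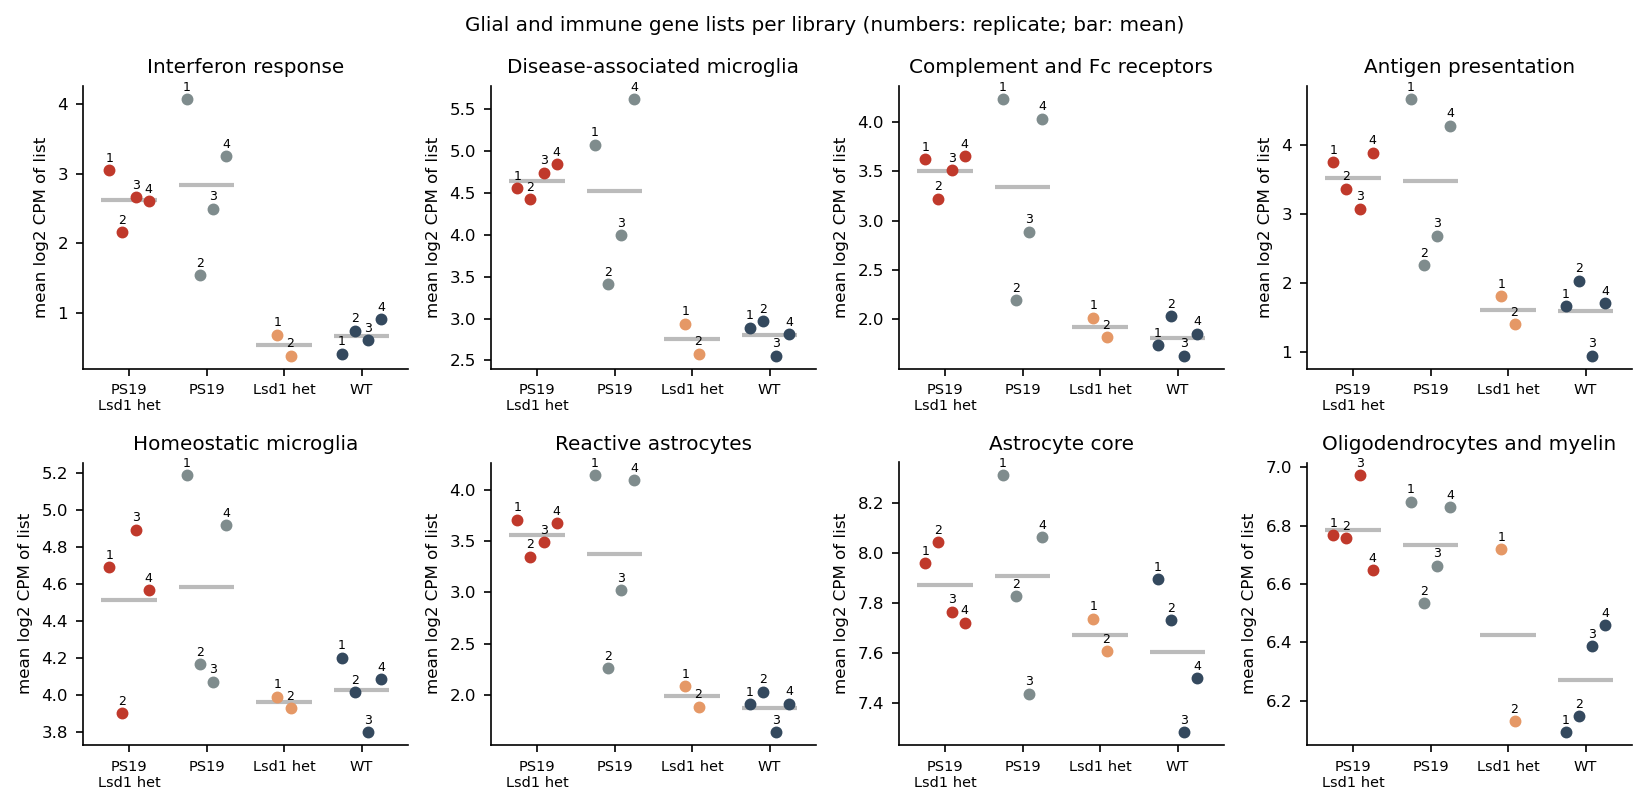
Mean log2 CPM of 8 glial and immune gene lists in each library (y axis), for PS19 Lsd1 heterozygotes, PS19, Lsd1 heterozygotes without tau and WT (x axis). Points are libraries numbered by replicate and grey bars are group means. PS19 Lsd1 heterozygotes lie inside the wider PS19 range for disease-associated microglia (4.43 to 4.85 against 3.41 to 5.62), and both lie above WT.

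Astrocyte genes followed the same picture. Reactive astrocyte genes had 15 of 22 positive (median 0.14, 0.09 without replicate 2 of the heterozygotes and -0.18 without PS19 replicate 2). Core astrocyte genes had 9 of 18 positive (median 0.001), and 4 of 18 without replicate 2 of the heterozygotes (median -0.13). Gfap, the astrocyte intermediate filament, read 2580.3, 1544, 1961 and 1687 CPM in PS19 Lsd1 heterozygotes, against 3163, 632, 782 and 2852 CPM in PS19. All 4 heterozygote libraries lay between the 2 high and the 2 low PS19 libraries. Gpc5, a glypican of astrocytes, read 40.3, 30.2, 34.1 and 34.4 CPM in PS19 Lsd1 heterozygotes, against 50.4, 50.8, 46.6 and 35.5 CPM in PS19 (log2 difference -0.39, SE 0.16). Glul, glutamine synthetase, was at -0.29 (SE 0.13) and Fkbp5, a glucocorticoid-induced chaperone, at -0.47 (SE 0.27). B3gnt5, a glycosyltransferase of the reactive list, stood at 10.2 CPM in replicate 2 of the heterozygotes and at no more than 2.22 CPM in the other 7 libraries. Myelin genes had 11 of 17 positive (median 0.05), with Cnp at 0.38 (SE 0.25) and Mal at -0.27 (SE 0.19). Oligodendrocyte precursor genes had 5 of 11 positive (median -0.04), with Lhfpl3 at 0.28 (SE 0.23) and Pdgfra at -0.18 (SE 0.15).

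Neuronal lists had mostly negative differences, and for CA1, CA3, dentate, synapse and GABAergic genes the median was nearer to 0 or positive without replicate 2. CA1 pyramidal genes had 10 of 11 negative (median -0.20), yet without replicate 2 they had 8 of 11 positive (median 0.11). Gpr161, a receptor of the primary cilium, was at -0.53 (SE 0.37). Dentate granule genes had 14 of 16 negative (median -0.29), and without replicate 2 they had 8 of 16 negative (median -0.05). Genes that mark the hippocampus had 13 of 15 negative (median -0.31), and without replicate 2 they had 7 of 15 negative (median 0.01). Glutamatergic synapse genes had 23 of 33 negative (median -0.13), and 22 of 33 without replicate 2 (median -0.03). CA3 and CA2 genes were at -0.22 and, without replicate 2, at -0.09, with Pcp4, a calmodulin-binding peptide, at 0.69 (SE 0.36) and Cpne4, a copine, at -0.59 (SE 0.34). Zbtb20, a transcription factor of hippocampal neurons, had a log2 difference of -0.52 (SE 0.24), Homer2, a postsynaptic scaffold, -0.54 (SE 0.26), Vamp2, a synaptic vesicle protein, -0.35 (SE 0.17) and Rspo3, a Wnt enhancer, -0.53 (SE 0.27). GABAergic genes had 12 of 20 negative (median -0.18, and -0.04 without replicate 2), with Erbb4, a neuregulin receptor, at -0.33 (SE 0.14). Neurogenesis genes had 10 of 15 negative (median -0.23, and -0.20 without replicate 2), with Sox11, of young neurons, at -0.48 (SE 0.28).

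Activity-dependent genes behaved likewise. Immediate early genes, which neurons induce within minutes of firing, had 18 of 19 negative (median -0.43), and without replicate 2 they had 10 of 19 negative (median -0.003). Arc, a synaptic plasticity gene, read 175, 33, 185 and 38.7 CPM in PS19 Lsd1 heterozygotes, against 144, 428, 87.7 and 85.1 CPM in PS19. Fosb read 16.2, 3.08, 11.2 and 6.18 CPM in PS19 Lsd1 heterozygotes, against 20.4, 39, 8.9 and 10.8 CPM in PS19. Both were lowest in replicates 2 and 4 of the heterozygotes and highest in PS19 replicate 2. Jun was at -0.43 (SE 0.20) and Inhba, an activin subunit, at -0.64 (SE 0.31).

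Heat shock genes had mostly negative differences with and without replicate 2. Of 15, 14 were negative (median -0.33), and 13 of 15 without replicate 2 (median -0.27). No single library left out turned the median positive. Per library the list averaged 5.91, 5.82, 5.96 and 6.00 log2 CPM in PS19 Lsd1 heterozygotes, against 5.93, 6.76, 6.28 and 6.30 in PS19. WT ran from 5.68 to 6.21, a range that holds all the heterozygote values. Without tau the median was 0.14, for Lsd1 heterozygotes minus WT. Hspa8, the constitutive HSC70 chaperone, read 474, 369, 627 and 611 CPM in PS19 Lsd1 heterozygotes, against 445.4, 490.0, 1119 and 1158 CPM in PS19. Chordc1, an HSP90 co-chaperone, read 56.1, 63.6, 79.7 and 76.2 CPM in PS19 Lsd1 heterozygotes, against 53.7, 90.1, 144 and 109 CPM in PS19. Within replicate numbers 2, 3 and 4 both genes were lower in the heterozygote, and within number 1 they were slightly higher. The inducible Hspa1b read 8, 3.7, 5.63 and 8.12 CPM in PS19 Lsd1 heterozygotes, against 5.75, 69.9, 8.36 and 8.56 CPM in PS19, where replicate 2 alone is high. Stress response genes of the endoplasmic reticulum had 15 of 22 negative (median -0.14), and 14 of 22 without replicate 2 (median -0.04), with Chac1, a glutathione-degrading enzyme, at 0.62 (SE 0.20) and Pdia4, a protein disulfide isomerase, at -0.48 (SE 0.20). The p53 targets divided evenly (8 of 16 positive, median 0.003, and 9 of 16 without replicate 2, median 0.05), with Ccng1, cyclin G1, at -0.26 (SE 0.12) and Mdm2, the p53 ubiquitin ligase, at -0.21 (SE 0.11).

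Genes of oxidative phosphorylation had mostly positive differences. Of 32 nuclear genes, 28 were positive (median 0.16), and 26 without replicate 2 (median 0.17), against 51.9% of all genes. Cyc1, cytochrome c1, read 127, 145, 82.2 and 83.5 CPM in PS19 Lsd1 heterozygotes, against 113, 123, 31.1 and 79.4 CPM in PS19. Sdhc, a subunit of complex II, read 54.1, 64.4, 62.5 and 61.7 CPM in PS19 Lsd1 heterozygotes, against 56, 51.9, 32.7 and 56.2 CPM in PS19. Both were lowest in PS19 replicate 3, the library with 16.1% mitochondrial counts, and without that library the median was 0.11. Cholesterol synthesis genes had 15 of 21 positive (median 0.14, 0.24 without replicate 2 and -0.09 without replicate 3 of the heterozygotes), with Stard4, a cholesterol transfer protein, at 0.55 (SE 0.24) and Lss, lanosterol synthase, at 0.23 (SE 0.14). Genes that phosphorylate or clear tau had 13 of 19 positive (median 0.05, and 0.10 without replicate 2), with Cdk5r2, an activator of the tau kinase CDK5, at -0.29 (SE 0.22).

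Vessel and ventricle genes depended on single libraries. Mural and fibroblast genes had 14 of 18 negative (median -0.33, -0.52 without replicate 2 of the heterozygotes and 0.14 without PS19 replicate 1), with Ogn, osteoglycin, at -1.26 (SE 0.55) and Lum, lumican, at -0.68 (SE 0.43). Endothelial genes had 9 of 15 positive (median 0.06), and 7 of 15 without replicate 2 (median -0.002), with Slco1a4, a transporter of the blood-brain barrier, at 0.28 (SE 0.14) and Cdh5, VE-cadherin, at -0.22 (SE 0.17). Choroid plexus genes had 16 of 17 negative (median -0.25), and all 17 were positive without replicate 2 (median 0.42). Ttr, transthyretin, made by the choroid plexus, read 1561, 24.3, 29.8 and 3031 CPM in PS19 Lsd1 heterozygotes, against 1333, 885, 1948 and 232 CPM in PS19. The summed choroid plexus markers ran from 227 to 5274 CPM in PS19 Lsd1 heterozygotes and from 629.7 to 4487 CPM in PS19, a wide range within both groups. Sostdc1, a secreted Wnt and BMP antagonist, and Kcne2, a potassium channel subunit, were at -0.74 (SE 1.49) and -0.67 (SE 1.65). Red blood cell genes had 4 of 7 positive (median 0.10), and 3 of 7 without replicate 2 (median -0.02), with Slc4a1, the band 3 anion exchanger, at 1.54 (SE 0.84) and Alas2, of heme synthesis, at -0.27 (SE 0.41). Neocortical genes had 8 of 12 negative (median -0.32), and 7 of 12 without replicate 2 (median -0.11), with Tshz2 at -0.95 (SE 0.33) and Scnn1a, a sodium channel subunit, at -0.78 (SE 0.29). Thalamic genes had 9 of 15 negative (median -0.11, ranging from -0.32 without replicate 2 to 0.17 with another library left out), with Lef1, a Wnt transcription factor, non-overlapping at -0.59 (SE 0.22) and Tcf7l2 at -0.46 (SE 0.17). Striatal genes had 13 of 15 positive (median 0.42, and 0.08 without replicate 3), with Serpina9 at 2.35 (SE 1.02) and Rarb, a retinoic acid receptor, at 0.56 (SE 0.26), beside the striatal level of replicate 3. Leaving out each of the 8 compared libraries in turn changed the sign of the median of 23 of the 39 lists at least once and left it for 16, heat shock, oxidative phosphorylation, dentate and synapse genes among the 16.

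**Figure D5:**
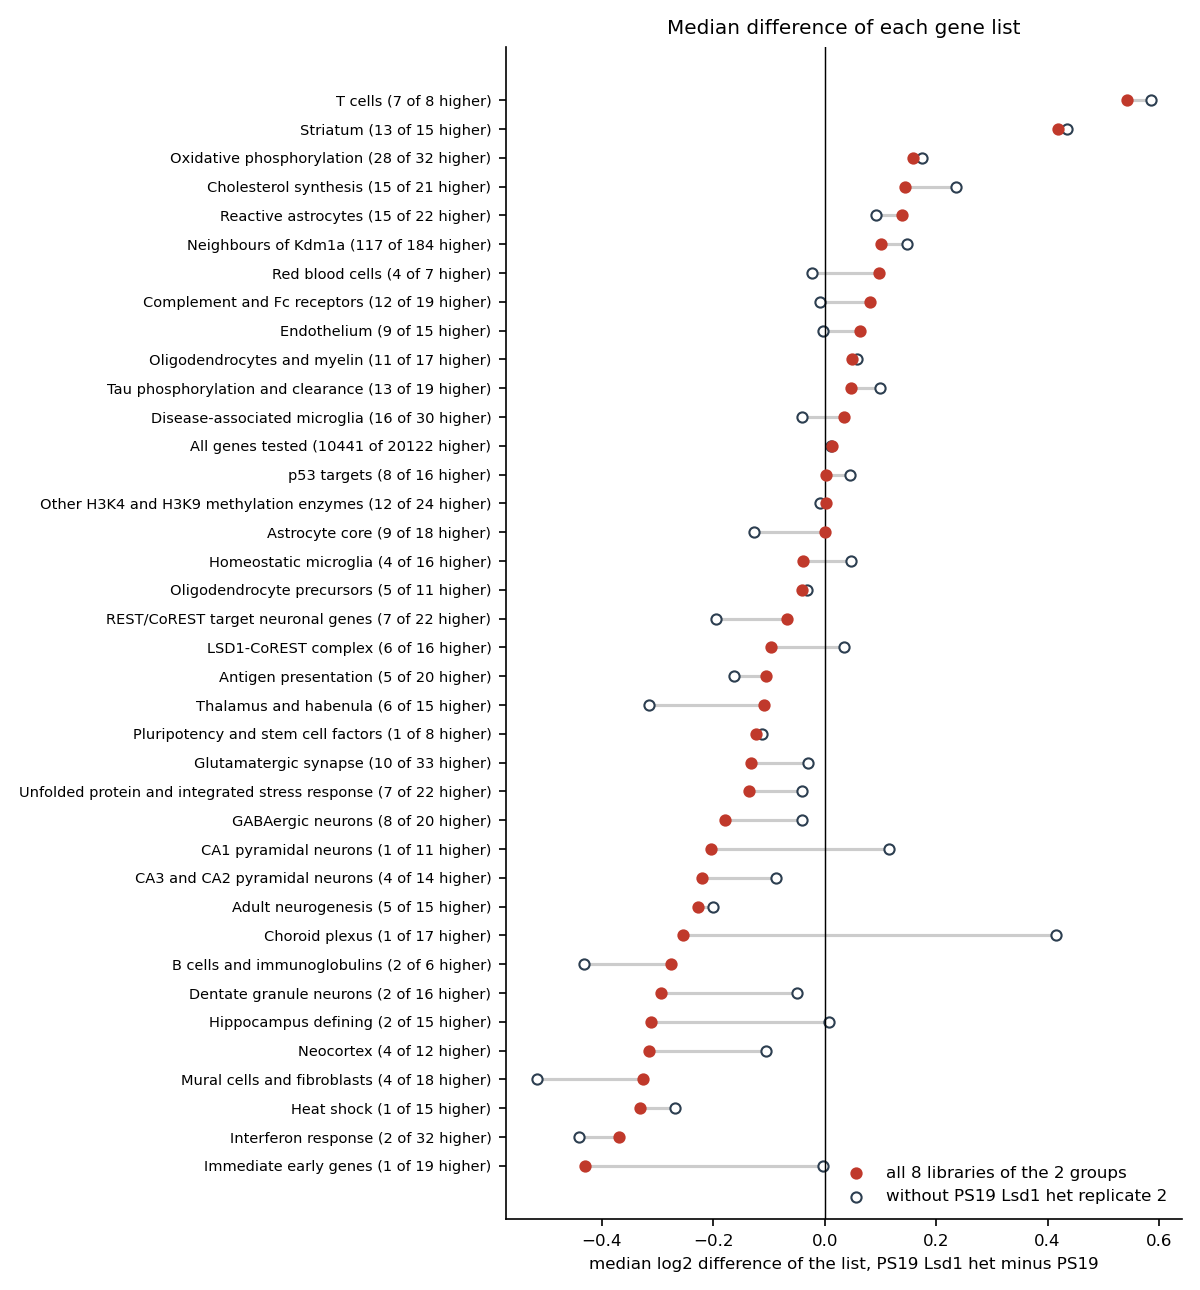
Median log2 difference of each gene list, PS19 Lsd1 heterozygotes minus PS19 (x axis), with all 8 libraries of both groups (filled) and without replicate 2 of the heterozygotes (open). Labels give how many tested members were higher. Without replicate 2 the choroid plexus list is at 0.42 (-0.25 with it) and immediate early genes at -0.003 (-0.43 with it), while interferon (-0.37 and -0.44) and heat shock genes (-0.33 and -0.27) are below 0 in both. With PS19 replicate 1 left out, which is not drawn, the interferon median was 0.07.

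Single protein-coding genes were named by lowest p, since none was called, and are values rather than changes. That p comes from the fit with the replicate number as a block. Agreement within numbers is therefore favoured by the choice and is no separate support, on either side. On the higher side, Skor2, Gabra6 and Slc6a5 were high in replicate 2 and their groups overlapped. Adamts18 was also highest there, at 14.1 CPM, but stood at 1.62, 1.75 and 1.76 CPM in the other heterozygotes, against 0.652 to 1 CPM in PS19, so its groups did not overlap with or without replicate 2. Mthfd1l, a mitochondrial folate enzyme, read 14.6, 16.7, 11.1 and 13.8 CPM in PS19 Lsd1 heterozygotes, against 9.15, 12, 7.95 and 8.91 CPM in PS19 (log2 difference 0.56, SE 0.13). Within every replicate number it was higher in the heterozygote. Acp1, a low molecular weight phosphatase, read 25.4, 23.8, 41.5 and 32.9 CPM in PS19 Lsd1 heterozygotes, against 17.9, 11.1, 30.6 and 28.1 CPM in PS19 (0.57, SE 0.16), also higher within every number. Fam184b did not overlap (0.55, SE 0.16). Plk5, a polo-like kinase, was at 1.24 (SE 0.31) and Syndig1, a regulator of AMPA receptor synapses, at 0.75 (SE 0.22), both highest in replicate 2.

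On the lower side, Gxylt2, a xylosyltransferase, read 1.76, 1.16, 1.94 and 2.36 CPM in PS19 Lsd1 heterozygotes, against 2.53, 2.97, 3.4 and 3.61 CPM in PS19. Its groups did not overlap (log2 difference -0.80, SE 0.23). Ncam2, a neural adhesion molecule, read 35.1, 27.2, 71.3 and 64.4 CPM in PS19 Lsd1 heterozygotes, against 40.6, 41.5, 139 and 92.6 CPM in PS19 (-0.57, SE 0.16). It was lower within every replicate number although the groups overlapped. Chek1, a DNA damage checkpoint kinase, was at -0.83 (SE 0.24), Tox, a transcription factor, at -0.67 (SE 0.20), Ptbp3, a splicing factor, at -0.45 (SE 0.14) and Utp14b at -0.70 (SE 0.21). Tmem100, Eya1, Jdp2 and Hist1h4i lay between -0.74 and -0.47.

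Whether the difference made by Lsd1 loss depends on tau was tested as an interaction, from the 8 libraries with the transgene and the 6 without. EdgeR called 0 of 20122 genes (0%), the lowest adjusted p being 0.774, with 219 genes at an unadjusted p under 0.05. DESeq2 called 4 with the replicate block and 2 without it. DESeq2 was not run without replicate 2 of the PS19 Lsd1 heterozygotes, so the part of that library in these calls was not tested. Kdm1a differed by -0.34 (SE 0.12) between PS19 Lsd1 heterozygotes and PS19 and by -0.48 (SE 0.16) between Lsd1 heterozygotes and WT, and the interaction's adjusted p was 1. The group without tau holds 2 libraries, which limits the precision of that contrast.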

How the data were processed

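RNA of dissected mouse hippocampus was sequenced after poly(A) selection and size selection, per the labels' protocols. The authors deposited whole-number counts of reads per gene for each library. FastQC 0.11.7, Trimmomatic 0.36.5, HISAT2 2.1.0, featureCounts 1.6.0.6, DESeq2 2.11.40.2 and GRCm38 are named in the submitters' processing notes. Which annotation release, strand setting and treatment of multi-mapping reads were used is not given in the sources used here, so reads can be divided between near-identical genes.

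From the deposited counts, edgeR 4.0.16 (R 4.3.3, limma 3.58.1) was fitted with TMM factors, its filter on low counts (minimum count 10, total 15) and robust quasi-likelihood dispersions on the 14 libraries of 9-month mice, with group and replicate number as terms and Benjamini-Hochberg adjustment over 20122 genes. SEs are the log2 difference over the root of F. DESeq2 1.42.0 with the same terms was an alternative. CPM values are TMM-scaled, and list levels are mean log2 CPM with a prior count of 2. The fit was run on simulated counts with changes set in advance. Their block followed the replicate number exactly and no library held tissue of another region. The simulation therefore does not show how the fit performs on these data. The numbers were taken as pairs, as planned from earlier work on these data. Same-numbered libraries deviated together (r of 0.479, 0.298, 0.423 and 0.352 across genes for numbers 1 to 4). This pairing comes from the data, not from the labels, and the best match was the own number in 0 of 4.

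Named genes were Kdm1a, Mapt, Prnp, the 10 protein-coding genes with the lowest p in each direction at a mean of at least 1 CPM, and the 2 tested members of each list with the lowest p, predicted genes and pseudogenes left out. A few genes that this rule names are not reported here. Other genes named, the pseudogenes, the cerebellar genes and the genes given for the LSD1 complex and stem cell factors beyond that rule were chosen after their values were seen. The comparison and all gene lists were chosen with earlier results of these data known. Parents of pseudogenes were found with BLAST 2.17.0+ among the GENCODE M21 transcripts. Replicates were compared for duplicates, and the closest pair of a group still differed by a chi-square of 14.75 per gene. The other 9 libraries of the series were not used. Alternatives covered DESeq2, no block, other scalings and filters, and each replicate left out.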

Additional observations from a re-analysis of the deposited data

Results flagged for a closer look

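Among 315 groups of 4 libraries examined for single values that stand apart from the rest of their group, 28 did so, and chance alone gives about 1 in 20. Some of the genes and lists were chosen because replicate 2 or 3 stood apart in them, so the number is no comparison with chance. Of these, 17 were in PS19 Lsd1 heterozygote replicate 2, 4 in replicate 3 and 7 elsewhere.

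In replicate 2 of the PS19 Lsd1 heterozygotes the cerebellar list (mean 7.20 log2 CPM) and the thalamic list (3.44) were highest of the group and the synapse list (7.55) lowest. Its highest genes were Cbln3 at 788 CPM, Fat2 at 524 CPM, Cbln1 at 505 CPM, Gabra6 at 216 CPM, Slc6a5 at 158 CPM and Syndig1 at 62.1 CPM. Skor2 at 14.7 CPM, Adamts18 at 14.1 CPM, Esrrb at 13.1 CPM, B3gnt5 at 10.2 CPM and Rarb at 5.73 CPM also stood above the other 3 libraries. Glul at 1199.5 CPM, Pdgfra at 37.0 CPM and C1ra at 0.761 CPM stood below them.

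In replicate 3 the striatal list (3.69 log2 CPM), Suv39h2 (5.81 CPM) and Ighg2c (2.24 CPM) were highest and Gm10036 (0.484 CPM) lowest. In replicate 4 Itgax was highest at 32.4 CPM.

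Among PS19 libraries, replicate 3 was highest for Ndufs5 (96.1 CPM), Tox (23.7 CPM) and Slc4a1 (0.544 CPM), replicate 2 for Jun (206 CPM) and Hspa1b (69.9 CPM), and replicate 1 for the B cell list (0.82 log2 CPM).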

How the results depend on the processing

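EdgeR called 0 genes between PS19 Lsd1 heterozygotes and PS19 under every alternative except no filter on low counts, which called 2, both higher (Skor2 and Hoxb5). DESeq2 called 3 with the replicate block and 1 without it, all higher. For the interaction, DESeq2 called 4 with the block and 2 without it, and edgeR without a filter 1. The replicate block was also dropped: with no replicate block edgeR called 0, with 252 genes at an unadjusted p under 0.05, and Kdm1a was at -0.32. Kdm1a was negative in all 21 alternatives, from -0.50 in replicates 1 and 2 alone to -0.19 in replicates 3 and 4 alone. With 1 replicate left out, 399 to 1707 genes had an unadjusted p under 0.05. Of the named genes, 34 of 119 had the other sign under at least 1 alternative, and 5 values passed the threshold that did not in the reported fit (Capn11 by DESeq2 with and without the block, Nudc-ps1, Gm10036, and Skor2 without a filter). The cause of these differences was not tested.

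Log2 differences with the other sign were as follows. Without the replicate block they were 0.0095 for Alas2, 0.079 for Ttr, -0.51 for Cd74 and -0.090 for Itgax. In the 8 libraries alone without the block they were 0.057 for Ttr, -0.50 for Cd74 and -0.083 for Itgax. With replicates 1 and 2 set against 3 and 4 they were 0.11 for Ttr and -0.43 for Cd74. In replicates 1 and 2 alone they were -0.025 for Mapt, 0.085 for Nudc, -0.31 for Drd1 and -0.0051 for Rcor1. In replicates 3 and 4 alone they were 0.11 for Prnp, 0.078 for Mertk, 0.032 for Fkbp5, -0.85 for B3gnt5, -0.051 for Lhfpl3, 0.0016 for Pdgfra, 0.015 for Cdk5r2, 0.48 for Sostdc1, 0.25 for Kcne2, 0.37 for Alas2, -0.28 for Cbln1, 1.28 for Ttr, -0.46 for Cd74, 0.43 for Arc, 0.087 for Stmn1, 0.068 for Klf4 and 0.029 for Myc. By DESeq2 without the block they were 0.058 for Ttr, -0.49 for Cd74 and -0.077 for Itgax. Without replicates 2 and 3 of the heterozygotes together, an alternative chosen after seeing the data, they were -0.017 for Mapt, 0.13 for Prnp, 0.0018 for Gria2, 0.064 for Syn1, 0.17 for Lpl, -0.40 for Ighm, -0.023 for B3gnt5, -0.17 for Cnp, 0.18 for Gpr161, 0.077 for Cpne4, 1.43 for Sostdc1, 1.39 for Kcne2, -1.09 for Cbln1, -0.26 for Drd2, 2.29 for Ttr, -0.10 for Gfap, -0.28 for Cd74, -0.38 for Itgax, -0.20 for C4b, -0.012 for Rcor1, 0.027 for Myc and 0.18 for Foxo1. With 1 replicate left out, the values ran from -0.048 to 0.12 for Mapt, -0.19 to 0.14 for Prnp, -0.77 to 0.077 for B2m, -0.29 to 1.37 for B3gnt5, -0.011 to 0.46 for Lhfpl3, -2.74 to 0.32 for Sostdc1, -2.74 to 0.37 for Kcne2, -0.81 to 0.091 for Alas2, -0.29 to 0.012 for Nudc, -0.37 to 3.15 for Cbln1, -0.14 to 0.67 for Drd1, -3.63 to 1.10 for Ttr, -0.044 to 0.61 for Gfap, -0.46 to 1.04 for Cd74, -0.19 to 0.94 for C4b, -1.68 to 0.20 for Arc, -0.34 to 0.11 for Stmn1, -0.019 to 0.055 for Rcor1 and -0.28 to 0.096 for Myc.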
